A study of Mus musculus with 16 samples.

Results

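Bone morphogenetic protein (BMP) signalling was followed through 10 genes in hearts of embryos with and without *Chd7* in the anterior mesoderm. The genes were 6 ligands (*Bmp2*, *Bmp4*, *Bmp5*, *Bmp6*, *Bmp7* and *Bmp10*) and 4 SMAD target genes (*Id1*, *Id2*, *Id3* and *Smad6*). They were chosen by name from the array platform's annotation, and each of the 10 was read by exactly 1 probe set that named no other gene, out of 19937 genes measured in this way. CHD7 is an ATP-dependent chromatin remodeller, and the study asked how its loss from the heart-forming mesoderm alters expression when cushions and septa form. Each of 16 whole hearts of C57BL/6 mouse embryos was hybridised to an array of its own (Affymetrix Mouse Gene 1.0 ST). The groups were 4 mutant (*Chd7*fl/fl;*Mesp1*-Cre) and 4 WT hearts at E13.5, and 4 mutant and 4 WT hearts at E11.5. The mutants carried both floxed *Chd7* alleles and the *Mesp1*-Cre allele, in which the *Mesp1* locus drives Cre recombinase in early pharyngeal and cardiac mesoderm, so neural crest-derived cells of these hearts kept *Chd7*. Controls are WT in the labels and *Chd7*+/+;*Mesp1*-Cre in the methods, but the mating the labels describe (*Chd7*fl/+;*Mesp1*-Cre with *Chd7*fl/fl) gives no *Chd7*+/+ embryos, so the control genotype is not settled here.

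BMPs are secreted dimers that bind pairs of type I and type II serine/threonine kinase receptors. The activated type I receptor phosphorylates SMAD1, SMAD5 and SMAD9, which join SMAD4 and enter the nucleus. In the embryonic heart, *Bmp2* and *Bmp4* act in the atrioventricular canal and outflow tract, where cushions form, and *Bmp10* is made by trabecular myocardium. *Id1*, *Id2* and *Id3* encode inhibitors of basic helix-loop-helix factors, and SMAD6 is an inhibitory SMAD that acts as negative feedback on the pathway, so transcripts of these genes are often read as a sign of SMAD activity.

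SMAD complexes are known to bind the GC-rich palindrome GGCGCC, the short box CAGAC, read as GTCTG on the other strand, and the palindrome GTCTAGAC. Promoters of 7 of the 10 genes were found in RefSeq promoter sequences on build GRCm38.p6, and *Bmp2*, *Bmp7* and *Id1* were not matched. The windows searched were the 250 bases before the annotated start, on both strands, and no matches overlapped. Those of 3 target genes and of *Bmp5*, the ligand with the largest difference between mutant and WT hearts below, are shown 5′ to 3′ on the coding strand with motif matches in capitals (*Id3*, chr4:136143572-136143821, plus strand; *Id2*, chr12:25096093-25096342, minus strand; *Smad6*, chr9:64022060-64022309, minus strand; *Bmp5*, chr9:75775115-75775364, plus strand).
Id3: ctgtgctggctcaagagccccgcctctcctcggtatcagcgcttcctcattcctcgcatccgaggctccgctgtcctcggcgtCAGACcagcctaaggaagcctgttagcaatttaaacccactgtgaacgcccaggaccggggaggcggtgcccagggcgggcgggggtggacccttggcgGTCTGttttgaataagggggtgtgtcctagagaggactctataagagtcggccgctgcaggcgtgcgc
Id2: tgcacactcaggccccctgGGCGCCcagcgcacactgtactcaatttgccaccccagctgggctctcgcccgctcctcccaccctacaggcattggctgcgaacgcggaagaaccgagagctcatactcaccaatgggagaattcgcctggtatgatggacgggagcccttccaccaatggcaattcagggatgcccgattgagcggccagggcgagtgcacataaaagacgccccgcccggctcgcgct
Smad6: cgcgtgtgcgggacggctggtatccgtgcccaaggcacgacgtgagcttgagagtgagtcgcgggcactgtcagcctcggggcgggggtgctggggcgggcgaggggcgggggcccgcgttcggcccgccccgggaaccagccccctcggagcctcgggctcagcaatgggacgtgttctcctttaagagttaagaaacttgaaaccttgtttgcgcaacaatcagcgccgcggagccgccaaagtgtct
Bmp5: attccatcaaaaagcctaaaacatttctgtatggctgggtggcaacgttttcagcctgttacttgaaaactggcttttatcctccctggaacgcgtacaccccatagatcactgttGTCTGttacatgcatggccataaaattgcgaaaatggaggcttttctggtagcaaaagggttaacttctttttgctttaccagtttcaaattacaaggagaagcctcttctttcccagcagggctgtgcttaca

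The *Id3* window held CAGAC in 1 orientation from 167 bases and in the other from 68 bases before the start. The *Id2* window held GGCGCC from 231 bases before the start, and none of the 3 motifs was found in that of *Smad6*. In *Bmp5*, GTCTG lay 134 bases before the start, and in *Bmp6*, CAGAC lay 119 bases before it. Of the 7 windows, 1 held GGCGCC, 3 held CAGAC and 0 held GTCTAGAC, against 9.59%, 42.2% and 0.167% of all 32851 promoter windows of this length. These matches describe the letters of the windows only, and no SMAD binding was measured.

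The arrays measured heart tissue. The mean log2 expression of 7 cardiomyocyte genes lay between 12.91 and 13.35 in every heart and that of 7 endocardial and endothelial genes between 10.59 and 10.99, while 6 liver genes averaged 6.06 to 7.25 and 6 lung and foregut genes 6.02 to 6.64. *Chd7* itself, the check of the labels, was downregulated in mutant hearts with a log2 FC of -1.08 at E13.5 (limma, adjusted p = 0.0209) and -1.29 at E11.5 (adjusted p = 0.00132). These values are of its brightest single-gene probe set, and the paper lists a larger loss of *Chd7* at both stages. Among the hearts, mutant E11.5 replicate 4 had a mean of 10.91 over 10 hypoxia-induced genes, against 9.75 to 10.52 in the other 15 hearts, and mutant E11.5 replicate 3 and WT E13.5 replicate 1 had the highest means over lung and foregut genes (6.64 and 6.62, against 6.02 to 6.40 in the other 14). Results that rest on these 3 hearts, set apart after the data had been seen, are given with and without them. Other hearts stood out in other lists, with mutant E13.5 replicate 3 at 10.93 over 6 epicardial genes (next highest 10.40) and WT E13.5 replicate 4 at 7.25 over liver genes (next highest 6.93), and each of the 16 hearts was also left out alone. In whole hearts, fewer cells of a type and less RNA per cell cannot be told apart.

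Values are log2 expression after RMA, and a change is a difference of log2 means tested in limma over 34760 probe sets, with p adjusted by the Benjamini–Hochberg procedure. Calls needed a log2 FC over 0.5 in size together with an adjusted p under 0.05. Values spread more within the E13.5 arrays than within the E11.5 arrays (SD within an array 2.38 to 2.42 and 2.18 to 2.26), and the sources do not state whether both stages were normalised in 1 run. Each change between stages printed below over all 16 hearts is therefore given as deposited and after quantile normalisation of the 16 arrays together. In WT hearts this moved the changes of the 10 genes by -0.18 to -0.24. Stage and any processing by stage cannot be told apart.

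**Figure D1:**
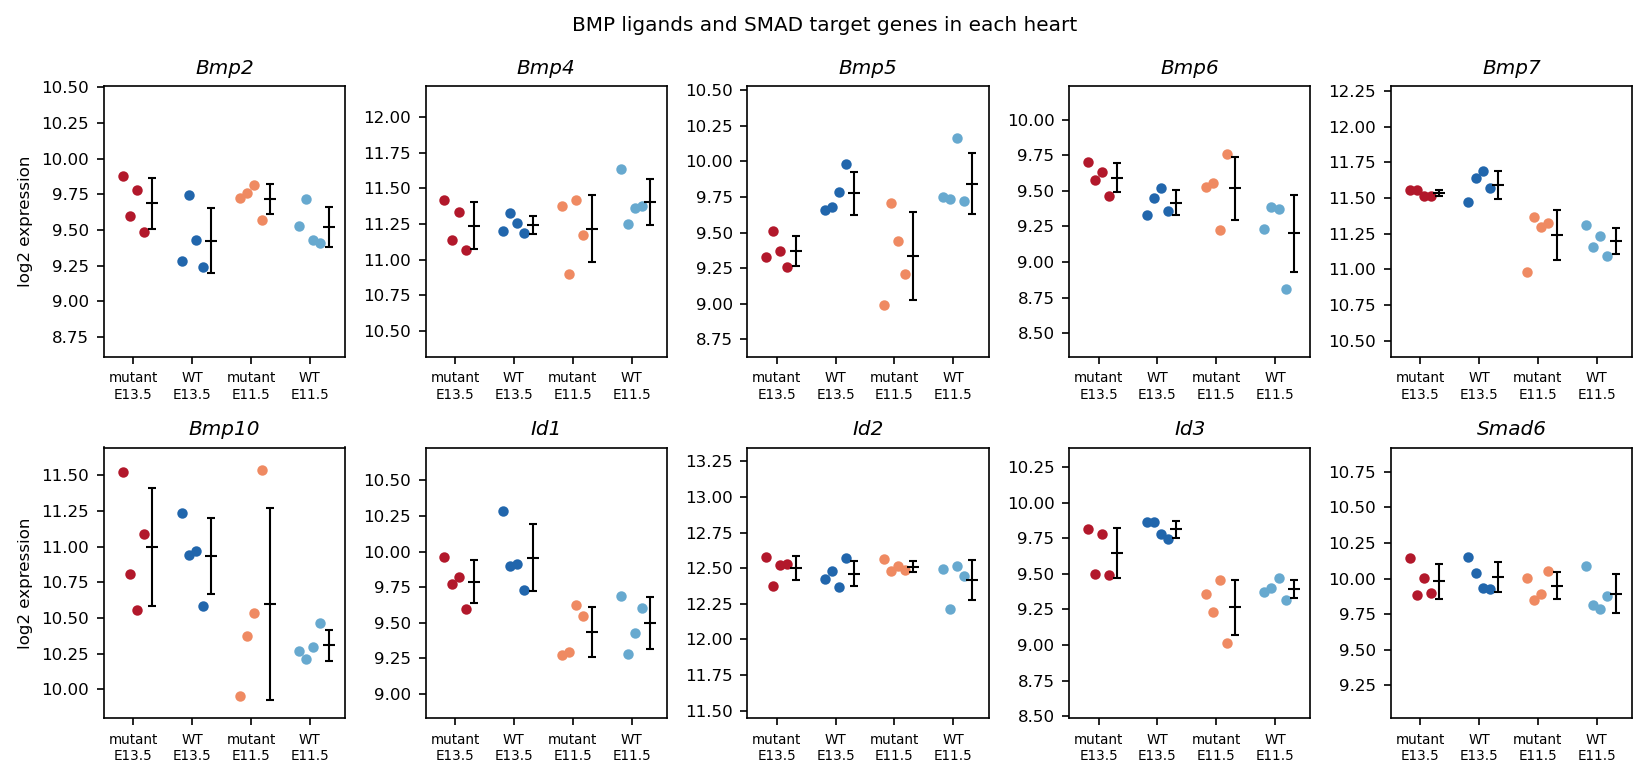
Log2 expression of the 6 BMP ligands and 4 SMAD target genes in each of the 16 hearts, 1 panel per gene, with mutant E13.5, WT E13.5, mutant E11.5 and WT E11.5 hearts from left to right; points are hearts, and bars are the group mean and SD (n = 4). All panels span the same log2 range. *Bmp5* was lower in mutant than in WT hearts at both stages, and *Bmp10* was high at 11.54 in 1 mutant E11.5 heart.

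None of the 10 genes was called changed between WT E13.5 and WT E11.5 hearts, in a comparison where 16.5% of all genes were called higher and 12.3% lower. By the adjusted p alone, 3 of the 10 (*Bmp7*, *Id1* and *Id3*) were higher at E13.5, beside 26.4% of all genes, and 0 were lower. After quantile normalisation 0 of 10 were called, against 11.4% of genes called higher and 9.56% called lower. By the adjusted p alone 0 were then higher, beside 18.6% of genes, and 1, *Bmp4*, was lower, beside 15.3%. The median change over the 10 genes was 0.17 as deposited and -0.05 after quantile normalisation. For the 4737 genes whose mean signal lay within the range of the 10, the medians were 0.29 and 0.05.

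Among the ligands, *Bmp7*, a BMP of the myocardium, was 11.47, 11.64, 11.69 and 11.57 in WT E13.5 hearts, against 11.31, 11.16, 11.24 and 11.09 in WT E11.5 hearts. Every E13.5 heart lay above every E11.5 heart. The log2 change was 0.39 (standard error 0.10, adjusted p = 0.00481), or 1.31-fold, and it was 0.15 (adjusted p = 0.263) after quantile normalisation. *Bmp10*, which sustains the growth of trabecular myocardium, was 11.23, 10.94, 10.97 and 10.58 in WT E13.5 hearts and 10.26, 10.21, 10.30 and 10.46 in WT E11.5 hearts. The groups were again fully apart, with a wider spread at E13.5. Its log2 change was the largest of the 10 in size, 0.63 (standard error 0.27, adjusted p = 0.0779), and 0.39 (adjusted p = 0.285) after quantile normalisation. With WT hearts of both stages fitted alone *Bmp10* passed the test (0.63, adjusted p = 0.00768), as it did when mutant E11.5 replicate 4, which adds to the shared spread, was left out (adjusted p = 0.0189).

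*Bmp4* was 11.20, 11.33, 11.26 and 11.19 in WT E13.5 hearts and 11.64, 11.25, 11.36 and 11.38 in WT E11.5 hearts. The deposited values overlapped (log2 change -0.16, adjusted p = 0.312), and after quantile normalisation every E13.5 heart lay below every E11.5 heart (-0.40, adjusted p = 0.0229). *Bmp2*, the main ligand of the atrioventricular canal, and *Bmp5* had changes of -0.10 and -0.07 as deposited, and -0.31 and -0.30 after quantile normalisation, with adjusted p between 0.0777 and 0.734. *Bmp6*, a close relative of *Bmp5* and *Bmp7*, had 0.22 (adjusted p = 0.214) and 0.01 (adjusted p = 0.961). The hearts of both stages overlapped in these 3 genes.

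Of the target genes, *Id3* was 9.86, 9.86, 9.78 and 9.75 in WT E13.5 hearts and 9.37, 9.40, 9.47 and 9.32 in WT E11.5 hearts. It was the only 1 of the 10 genes whose E13.5 hearts lay above all E11.5 hearts both as deposited and after quantile normalisation. The log2 change was 0.42 (standard error 0.11, adjusted p = 0.00658), or 1.34-fold, and 0.20 (adjusted p = 0.170) after quantile normalisation. *Id1* was 10.29, 9.90, 9.91 and 9.73 in WT E13.5 hearts and 9.69, 9.28, 9.43 and 9.60 in WT E11.5 hearts. The stages were fully apart by a narrow margin, and WT E13.5 replicate 1 was the highest. The change was 0.46 (standard error 0.14, adjusted p = 0.0147), and 0.23 (adjusted p = 0.209) after quantile normalisation. Leaving out WT E11.5 replicate 1 or WT E13.5 replicate 5 took the change past the fold threshold (0.52, adjusted p = 0.0128, and 0.53, adjusted p = 0.0110). Without WT E13.5 replicate 1 it was 0.35 (adjusted p = 0.0519), and without all 3 hearts that stand apart it was 0.35 (adjusted p = 0.0391).

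*Id2* was 12.37 to 12.57 in WT E13.5 hearts and 12.22 to 12.52 in WT E11.5 hearts, and *Smad6* was 9.93 to 10.15 and 9.79 to 10.09. Both overlapped between stages. Their changes were 0.04 (95% interval -0.15 to 0.23) and 0.12 (-0.09 to 0.33), and -0.13 and -0.11 after quantile normalisation. In all, WT hearts were fully apart and higher at E13.5 in 4 of the 10 genes, beside 26.8% of all genes.

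**Figure D2:**
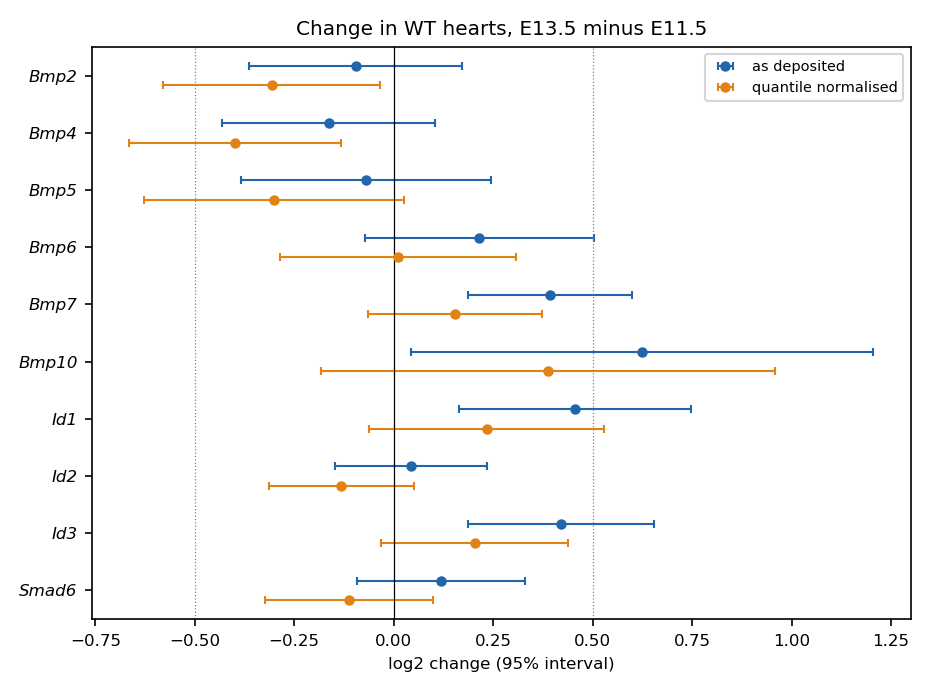
Log2 change between WT E13.5 and WT E11.5 hearts (x axis, E13.5 minus E11.5) for each of the 10 genes (y axis), as deposited and after quantile normalisation of the 16 arrays; bars are 95% intervals from the fit, and dotted lines mark the fold threshold of 0.5 in either direction. *Bmp7*, *Bmp10*, *Id1* and *Id3* had intervals above 0 as deposited, and after quantile normalisation every point lay further to the left.

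In mutant hearts the same 10 genes were examined between E13.5 and E11.5, where again 0 were called, beside 16.8% of all genes called higher and 12.8% called lower. By the adjusted p alone *Bmp7*, *Id1* and *Id3* were higher at E13.5, beside 26.9% of genes. *Id3* was 9.81, 9.50, 9.78 and 9.49 in mutant E13.5 hearts and 9.36, 9.23, 9.46 and 9.01 in mutant E11.5 hearts, fully apart, with a change of 0.38 (adjusted p = 0.0121). *Bmp7* was 11.51 to 11.56 in mutant E13.5 hearts, where the 4 hearts lay closest together, and 10.98 to 11.37 in mutant E11.5 hearts, with a change of 0.29 (adjusted p = 0.0253). *Id1* was 9.96, 9.77, 9.82 and 9.60 at E13.5 and 9.28, 9.30, 9.63 and 9.55 at E11.5, where the highest E11.5 heart passed the lowest E13.5 heart. Its change of 0.35 had an adjusted p just under the threshold, and without the 3 hearts that stand apart it was 0.50 (adjusted p = 0.0155). After quantile normalisation these changes were 0.15, 0.06 and 0.12, with adjusted p from 0.300 to 0.696. The median change over the 10 genes in mutant hearts was 0.05 as deposited and -0.16 after quantile normalisation. As deposited 8 of the 10 changes were above 0, and after quantile normalisation 4 were. *Bmp4*, *Bmp5*, *Bmp6* and *Smad6* were the genes that moved from above to below 0.

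*Bmp10* varied most among mutant hearts. It was 11.52, 10.81, 10.56 and 11.09 in mutant E13.5 hearts and 9.95, 10.37, 10.53 and 11.54 in mutant E11.5 hearts. Mutant E11.5 replicate 4 was higher than every E13.5 heart, and the other 3 E11.5 hearts lay below all E13.5 hearts. The change over all hearts was 0.40 (adjusted p = 0.257). Without replicate 4 it was 0.71 (adjusted p = 0.0158), and without the 3 hearts that stand apart it was 0.83 (adjusted p = 0.0157), past both thresholds. After quantile normalisation of all 16 arrays it was 0.17 (adjusted p = 0.668).

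None of the 10 genes was called changed between mutant and WT hearts of the same stage. Of the 10, 0 were called at E13.5, beside 0.0451% of all genes, and 0 at E11.5, beside 0.251%. At an unadjusted p under 0.05 there was 1 gene at E13.5, *Bmp5*, beside 3.94% of all genes, and there were 2 at E11.5, *Bmp5* and *Bmp6*, beside 9.34%. The median log2 FC over the 10 was -0.02 at E13.5 and 0.05 at E11.5, against 0.00 over all genes at each stage.

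*Bmp5*, a ligand that acts with *Bmp7* in early development of the mouse heart, had the lowest log2 FC of the 10 at both stages. It was 9.33, 9.51, 9.37 and 9.26 in mutant E13.5 hearts, against 9.66, 9.68, 9.78 and 9.98 in WT E13.5 hearts. It was 8.99, 9.71, 9.44 and 9.21 in mutant E11.5 hearts, against 9.75, 9.73, 10.17 and 9.72 in WT E11.5 hearts. Every mutant heart lay below every WT heart of its stage, and at E11.5 mutant replicate 2 lay just below the lowest WT heart. *Bmp5* was the only 1 of the 10 with this pattern, which was found in 2.02% of all genes at E13.5, 1.94% at E11.5 and 0.346% at both stages. The log2 FC was -0.41 at E13.5 (95% interval -0.72 to -0.09, adjusted p = 1.00 in limma) and -0.51 at E11.5 (-0.82 to -0.19, adjusted p = 0.229), which did not pass the test at either stage. Taken over both stages, a comparison added after the values had been seen, it was -0.46 (95% interval -0.68 to -0.23, adjusted p = 0.0890), where 101 genes, 0.507% of all, had an adjusted p under 0.05. It passed both thresholds only without mutant E11.5 replicate 2 (-0.52, adjusted p = 0.0270), the mutant heart closest to WT, while its adjusted p over all alternatives ran from 0.0270 to 0.332. Without the 3 hearts that stand apart it was -0.47 (adjusted p = 0.246). Over both stages *Bmp2* (0.23, adjusted p = 0.526) and *Bmp6* (0.25, adjusted p = 0.517) had intervals above 0 (0.04 to 0.42 and 0.04 to 0.45) and did not pass the test either.

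Marker lists of other cell types were compared in the same hearts. The mean over 6 cushion mesenchyme genes (*Postn*, *Sox9*, *Twist1*, *Vcan*, *Prrx2* and *Cthrc1*) was 9.99 to 10.32 in mutant E13.5 hearts, against 10.19 to 10.43 in WT E13.5 hearts, and 10.16 to 10.37 in mutant E11.5 hearts, against 10.32 to 10.57 in WT E11.5 hearts. The groups overlapped at both stages and 0 of the 6 genes were called at either. The 10 hypoxia-induced genes averaged 10.09 to 10.52 in mutant E13.5 hearts, against 10.01 to 10.35 in WT E13.5 hearts, and 9.89 to 10.91 in mutant E11.5 hearts, against 9.75 to 9.83 in WT E11.5 hearts, with 0 of 10 called at either stage. Epicardial genes averaged 9.92 to 10.93 in mutant E13.5 hearts, against 9.73 to 9.98 in WT E13.5 hearts, and 9.80 to 10.40 in mutant E11.5 hearts, against 9.62 to 9.95 in WT E11.5 hearts. The mean over 3 nerve and glia genes was 6.72 to 7.11 in mutant E13.5 hearts, against 6.80 to 6.95 in WT E13.5 hearts, and 6.66 to 7.04 in mutant E11.5 hearts, all below the 7.06 to 7.27 of WT E11.5 hearts. Among genes of the marker lists, 1 was called between mutant and WT hearts, the pericyte gene *Rgs5*, which was lower in mutant E11.5 hearts (log2 FC -2.04, adjusted p = 0.0340, and -2.10, adjusted p = 0.108, without the 3 hearts that stand apart). The part of these levels in the *Bmp5* difference was not tested. Levels of 3 Y-linked genes were high in all WT E11.5 hearts and varied within the other groups, and with their mean as a covariate the log2 FC of *Bmp5* was -0.35 at E13.5 and -0.43 at E11.5.

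The other 5 ligands overlapped between mutant and WT hearts at both stages. *Bmp6* was 9.70, 9.57, 9.63 and 9.47 in mutant E13.5 hearts, against 9.33, 9.45, 9.52 and 9.36 in WT E13.5 hearts, and 9.53, 9.56, 9.23 and 9.76 in mutant E11.5 hearts, against 9.23, 9.39, 9.38 and 8.81 in WT E11.5 hearts. At each stage 3 of the 4 mutant hearts lay above all WT hearts. Its log2 FC was 0.18 at E13.5 (adjusted p = 1.00) and 0.32 at E11.5 (95% interval 0.03 to 0.60, adjusted p = 0.473). *Bmp2* was 9.88, 9.60, 9.78 and 9.49 in mutant E13.5 hearts, against 9.28, 9.74, 9.43 and 9.24 in WT E13.5 hearts, with a log2 FC of 0.26 (95% interval -0.01 to 0.53, adjusted p = 1.00). At E11.5 it was 9.57 to 9.82 in mutant and 9.41 to 9.72 in WT hearts, with a log2 FC of 0.20 (-0.07 to 0.46, adjusted p = 0.677).

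For *Bmp4*, the log2 FC was -0.0035 at E13.5 (95% interval -0.27 to 0.26) and -0.19 at E11.5 (-0.46 to 0.08), where mutant replicate 2 was the lowest at 10.90. For *Bmp7* it was -0.06 (-0.26 to 0.15) and 0.04 (-0.16 to 0.25). The intervals of *Bmp10* were the widest, -0.52 to 0.64 at E13.5 and -0.29 to 0.87 at E11.5, around values of 0.06 and 0.29. Without mutant E11.5 replicate 4, the *Bmp10* log2 FC at E11.5 was -0.02.

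None of the 4 SMAD target genes was called between mutant and WT hearts. For *Id1*, the log2 FC was -0.17 at E13.5 (95% interval -0.46 to 0.12) and -0.06 at E11.5 (-0.36 to 0.23), and for *Id3* it was -0.17 (-0.40 to 0.07) and -0.13 (-0.36 to 0.11). In WT E13.5 hearts *Id3* lay within 9.75 to 9.86, whereas mutant E13.5 hearts lay in a pair at 9.78 and 9.81 and a pair at 9.49 and 9.50. *Id2* had a log2 FC of 0.04 (-0.15 to 0.23) at E13.5 and 0.09 (-0.10 to 0.29) at E11.5, and *Smad6* had -0.03 (-0.24 to 0.18) and 0.06 (-0.15 to 0.27). The hearts overlapped in all 4 genes at both stages. Log2 FC values beyond 0.5 in size lay outside the 95% interval for each target gene at each stage.

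The effect of the mutation was also compared between stages. The difference of the log2 FC values (E13.5 minus E11.5) ran from -0.23 for *Bmp10* (95% interval -1.05 to 0.59) to 0.19 for *Bmp4* (-0.19 to 0.56), and 0 of 10 genes passed the test, as for all genes (0%). At an unadjusted p under 0.05 the count among the 10 was also 0, beside 3.96% of all genes. Without mutant E11.5 replicate 4 the difference for *Bmp10* was 0.08.

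**Figure D3:**
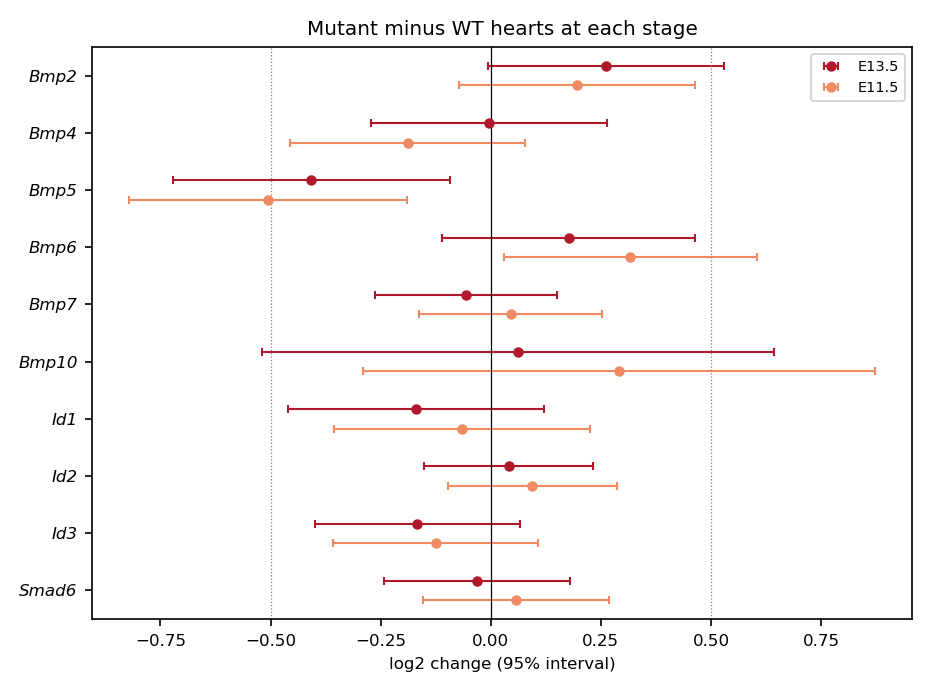
Log2 change between mutant and WT hearts (x axis, mutant minus WT) at E13.5 and E11.5 for each of the 10 genes (y axis); bars are 95% intervals from the fit, and dotted lines mark the fold threshold of 0.5 in either direction. The intervals of *Bmp5* lay below 0 at both stages before adjustment, and those of *Bmp10* were the widest.

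Hearts of 1 group also differed from each other. Deviations from the group mean correlated between *Bmp10* and the mean of 10 hypoxia-induced genes (such as *Vegfa*, *Pdk1* and *Ldha*) with r = 0.84 over 16 hearts, and with 0.57 over the 13 hearts left without the 3 that stand apart. Next in size among the 10 genes over 16 hearts were *Smad6*, with r = 0.54 (0.45 over 13 hearts), and *Bmp5*, with -0.47 (-0.56 over 13 hearts). All genes of a heart share 1 array and 1 dissection, so these values are a description. The share of all genes with an r as large with the hypoxia-induced genes is not given here. In mutant E11.5 replicate 4, *Bmp10* and the hypoxia-induced genes were at their highest of all 16 hearts. The part of the hypoxia-induced genes in the levels of *Bmp10*, *Smad6* and *Bmp5* was not tested. Of all genes, the deviations of *Kdm5b* (r = 0.94), *Mgarp* (0.91) and *Ddah1* (0.91) were the most like those of *Bmp10* over 16 hearts, and their r over 13 hearts was 0.80, 0.86 and 0.95. For *Id1* they were *Agtr2* (0.93), *Carm1* (0.88) and *Bsph2* (0.87), with 0.91, 0.79 and 0.86 over 13 hearts.

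Among the 10 genes, the pairs with the largest r in size over 16 hearts are given here. The r of deviations between *Smad6* and *Bmp4* was 0.61 over 16 hearts and 0.88 over 13, and between *Smad6* and *Id1* it was 0.69 and 0.75. *Id3* had r = 0.57 with *Bmp4* and 0.60 with *Bmp2*, and *Bmp7* had 0.57 with *Bmp5* (0.64 over 13 hearts). Over 16 hearts, 0.993% of all genes had a higher r with *Smad6* than *Bmp4* had, and 0.271% a higher one than *Id1*. For *Id3* the shares were 3.55% with *Bmp4* and 1.28% with *Bmp2*, and for *Bmp7* with *Bmp5* the share was 2.45%. *Bmp5* ran the other way to *Smad6*, with r = -0.56 over 16 hearts and -0.51 over 13. These values describe hearts of 4 groups of 4, and the deviations behind them are small beside 1 log2 unit.

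**Figure D4:**
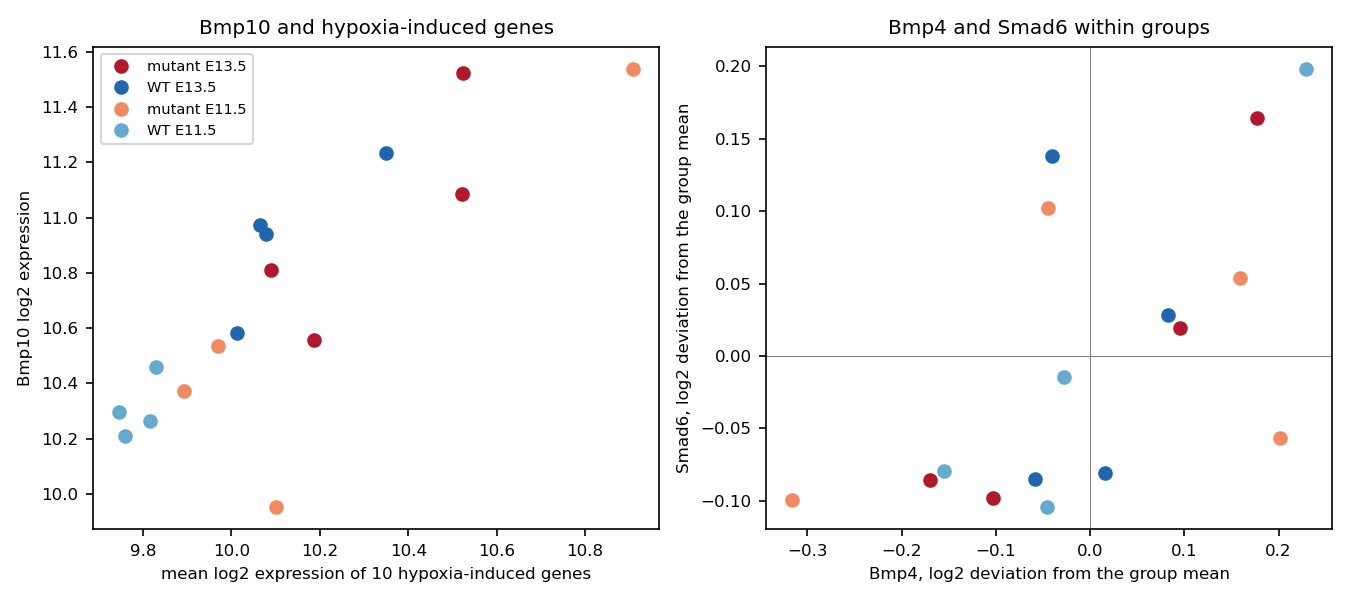
Each point is 1 of the 16 hearts, coloured by group (mutant E13.5, WT E13.5, mutant E11.5, WT E11.5). The left panel plots *Bmp10* (y axis, log2 expression) against the mean log2 expression of 10 hypoxia-induced genes (x axis), where mutant E11.5 replicate 4 lies at 10.91 and 11.54; the right panel plots the log2 deviation of *Smad6* (y axis) against that of *Bmp4* (x axis) from their group means.

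Of 60 other measured genes of the pathway in 5 lists, 8 rose and 3 fell in WT E13.5 hearts relative to WT E11.5 hearts as deposited, and 3 of the 8 and 2 of the 3 also passed both thresholds after quantile normalisation. The shares, 13.3% and 5.00%, stand beside 16.5% and 12.3% of all genes, and the lists' genes were chosen with results of these data known. Between mutant and WT hearts, 0 of the 60 were called at either stage by limma, with 7 at an unadjusted p under 0.05 at E13.5 and 10 at E11.5, where 3.94% and 9.34% of all genes had one. Of the 60, 7 had a mean below percentile 40 of all probe sets, the limit of the filter on dim probe sets. Those named below are *Bmp15*, *Gdf2*, *Bmpr1b* and *Cer1*, where signal may be near background and the size of a change is uncertain.

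Among 10 other ligands, *Gdf10* (also known as *Bmp3b*) rose in WT hearts. It was 6.98, 7.07, 7.38 and 7.22 in WT E13.5 hearts and 6.36, 6.42, 6.38 and 6.06 in WT E11.5 hearts, fully apart (log2 change 0.86, adjusted p = 0.00418, and 0.95, adjusted p = 0.00332, after quantile normalisation). Mutant E11.5 hearts, at 6.61, 7.55, 7.26 and 7.50, lay above all WT E11.5 hearts, with a log2 FC of 0.92 that missed the threshold (adjusted p = 0.0932). *Gdf2*, which encodes BMP9, fell in mutant hearts, to 5.66, 5.78, 5.71 and 5.67 in mutant E13.5 hearts, against 6.90, 7.14, 6.71 and 7.34 in mutant E11.5 hearts (log2 change -1.32, adjusted p = 2.03e-05, and -1.18 after quantile normalisation). Its mean lay at percentile 39.9 of all probe sets. In WT hearts its change was -0.32 (adjusted p = 0.123) and -0.19 after quantile normalisation, and the difference between the mutant and WT changes (95% interval -1.48 to -0.51) did not pass the test over all genes (adjusted p = 0.797). *Gdf6* and *Gdf7* had -0.04 and -0.32 in WT hearts, and -0.14 and -0.42 after quantile normalisation. *Bmp8a* had -0.55 in mutant hearts (adjusted p = 0.00738), which was -0.46 after quantile normalisation.

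Of 11 receptors and co-receptors, *Acvrl1* (ALK1, a type I receptor of endothelial cells) rose in hearts of both genotypes. It was 8.35, 8.37, 8.60 and 8.61 in WT E13.5 hearts and 7.46, 7.44, 7.83 and 7.87 in WT E11.5 hearts (log2 change 0.83, adjusted p = 0.00016). In mutant hearts the change was 0.96 (adjusted p = 4.66e-05), and quantile normalisation left 0.73 in WT and 0.85 in mutant hearts, past both thresholds. *Rgma*, a BMP co-receptor, fell in both, by 0.57 in WT (adjusted p = 0.0253) and by 0.59 in mutant hearts (adjusted p = 0.0210), and by 0.70 and 0.73 after quantile normalisation. *Bmpr1a* (type I receptor ALK3) and *Eng* (endoglin, an endothelial co-receptor) rose by 0.58 each in WT hearts as deposited and *Bmpr1b* (percentile 39.8) fell by 0.58, and quantile normalisation brought these 3 below the fold threshold (0.35, 0.36 and -0.44). *Acvr1* and *Acvr2b* were called only after it, at -0.63 and -0.59, against -0.41 and -0.46 as deposited.

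Of 10 SMAD proteins and regulators, 0 were called in WT hearts as deposited. *Ski*, a corepressor of SMAD transcription, had -0.40 in WT hearts (adjusted p = 0.00738), short of the fold threshold, and fell by 0.64 after quantile normalisation. In mutant hearts it fell by 0.56 (adjusted p = 0.000702) and by 0.80 after quantile normalisation. *Smad4*, the common partner SMAD, had 0.42 (adjusted p = 0.00713) and 0.18, and *Smurf2*, a ubiquitin ligase for SMADs and receptors, had 0.15 and -0.09.

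Of 16 secreted antagonists and modulators, *Fstl3*, a follistatin-like binder of activins and BMPs, rose in WT hearts under both scalings. It was 9.49, 10.07, 10.20 and 10.21 in WT E13.5 hearts and 9.25, 9.06, 9.45 and 9.27 in WT E11.5 hearts, fully apart, and WT E13.5 replicate 1 was close to the E11.5 level (log2 change 0.73, adjusted p = 0.00441, and 0.52, adjusted p = 0.0349, after quantile normalisation). *Fstl1*, a secreted glycoprotein of mesenchyme, rose by 0.65 (adjusted p = 1.76e-05) and *Bmp1*, a metalloprotease that cleaves chordin, by 0.57 (adjusted p = 0.000847) as deposited, and both were below the fold threshold after quantile normalisation (0.47 and 0.33). *Twsg1*, a chordin and BMP binder, had 0.10 and -0.14. In mutant hearts *Fstl1*, *Fstl3* and *Bmp1* passed as deposited (0.60, 0.56 and 0.57), and none of the 3 passed after quantile normalisation (0.43, 0.34 and 0.33). *Grem1* and *Cer1*, secreted antagonists, fell by 0.66 and 0.70 in mutant hearts, and after quantile normalisation *Grem1* still passed (-0.52) and *Cer1*, at percentile 24.7, did not (-0.44).

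Of 13 other genes known as BMP targets, *Hand1*, a basic helix-loop-helix factor of the left ventricle and outflow tract, fell in WT hearts. It was 9.53, 9.47, 9.37 and 9.14 in WT E13.5 hearts and 9.94, 9.97, 9.91 and 10.11 in WT E11.5 hearts, fully apart (log2 change -0.60, adjusted p = 0.00124, and -0.82 after quantile normalisation). *Nkx2-5*, a homeobox factor of cardiomyocytes, rose by 0.56 in WT (adjusted p = 0.00051) and by 0.61 in mutant hearts (adjusted p = 0.000254), and by 0.34 and 0.40 after quantile normalisation, short of the fold threshold. *Hand2* was called lower in WT hearts only after quantile normalisation (-0.58, against -0.33 as deposited). It was 10.10, 10.27, 9.95 and 10.15 in mutant E13.5 hearts, against 10.40, 10.48, 10.33 and 10.48 in WT E13.5 hearts, and 10.55, 10.35, 10.45 and 9.99 in mutant E11.5 hearts, against 10.79, 10.70, 10.92 and 10.59 in WT E11.5 hearts. Every mutant heart lay below every WT heart of its stage, as in 1 other of the 60 genes, *Bmp15* (percentile 33.8), and in 0.346% of all genes. In the added comparison over both stages, *Bmp15* was called lower in mutant hearts after quantile normalisation but not as deposited. The log2 FC of *Hand2* did not pass the test (-0.30, adjusted p = 1.00, at E13.5 and -0.41, adjusted p = 0.231, at E11.5). *Tbx20* and *Gata4* had 0.32 (adjusted p = 0.00835) and -0.21 (adjusted p = 0.0670) as deposited, and 0.10 and -0.44 after quantile normalisation.

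**Figure D5:**
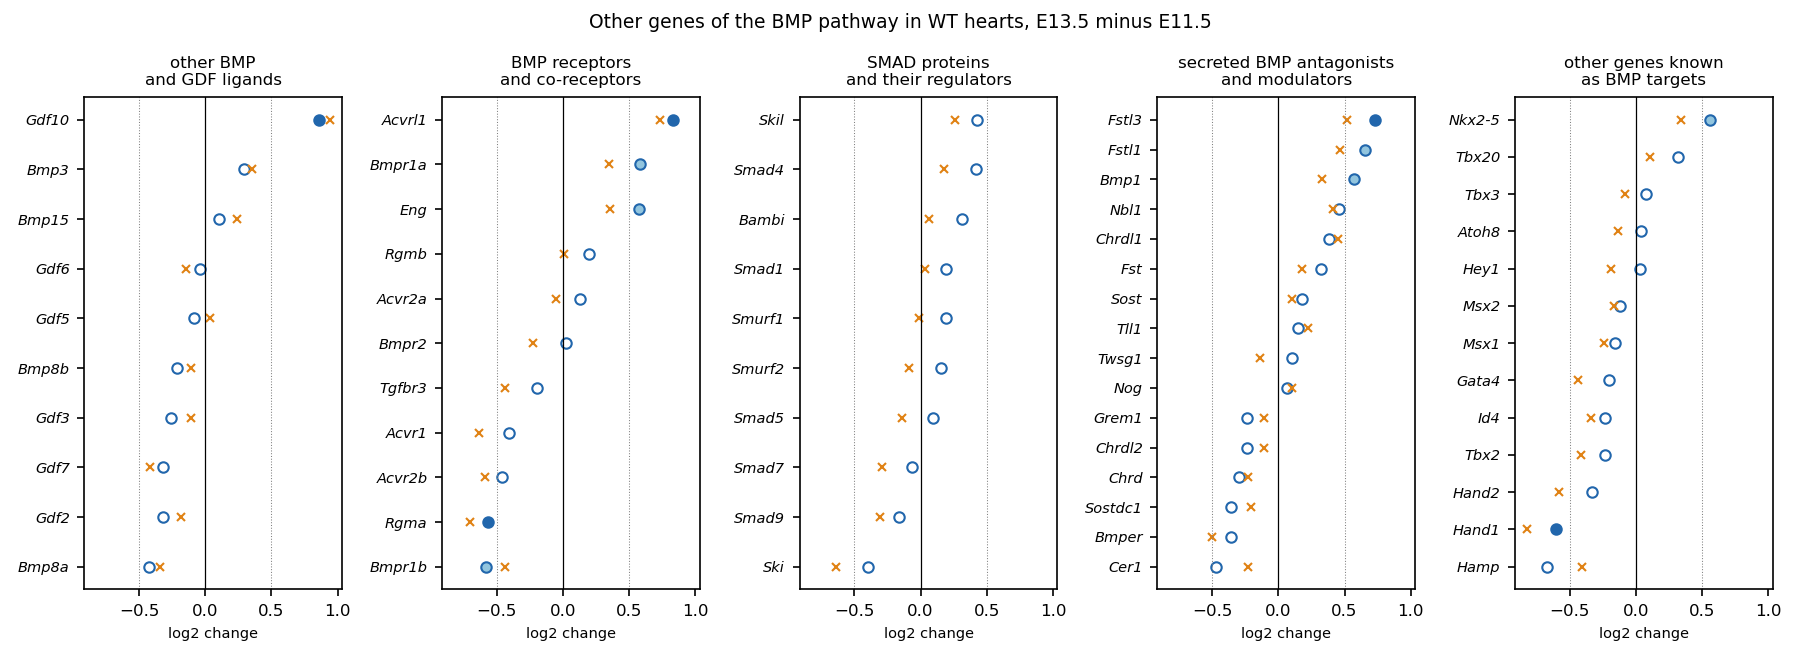
Log2 change between WT E13.5 and WT E11.5 hearts (x axis) for 60 other genes of the BMP pathway in 5 lists, 1 panel per list and 1 row per gene; circles are deposited values and crosses values after quantile normalisation, dark circles passed both thresholds under both, pale circles as deposited only, and open circles did not pass as deposited. *Gdf10*, *Acvrl1*, *Fstl3*, *Rgma* and *Hand1* were called under both.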

How the data were processed

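The deposited values are log2 expression of 34760 probe sets in 16 arrays, which the authors made by RMA (R package affy); versions are not given in the sources used here, and neither is a single run for both stages. Of the probe sets, 21640 named 1 gene, 1321 named several and 11799 named none, and a gene was read by its brightest single-gene probe set. The values were fitted without change in limma 3.58.1 (R 4.3.3), as 4 group means, with 12 residual degrees of freedom and Benjamini–Hochberg adjustment over all probe sets. Replicate numbers were not used to pair hearts, as no source says that they do. Same-numbered deviations correlated at a median of -0.04 over 21 pairs within and across stages, which cannot tell whether hearts shared a litter. Named were the 10 genes, *Chd7*, the genes of each other list that were called or had the 2 highest means, and the 3 genes most like *Bmp10* and *Id1*; other genes were chosen after their values were seen. The members and lists were chosen with earlier results of these data known. Alternatives were other scalings, priors, weights, filters, covariates and leaving out hearts. Promoters came from RefSeq, and figures from matplotlib 3.10.9 (Python 3.11.15).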

Additional observations from a re-analysis of the deposited data

Results flagged for a closer look

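In the 40 groups of 4 hearts formed by the 10 genes, 2 held a heart far from the other 3, where chance sets about 1 in 20 groups apart in this way. *Bmp5* was 10.17 in WT E11.5 replicate 3, against 9.72 to 9.75 in the other WT E11.5 hearts. *Bmp7* was 10.98 in mutant E11.5 replicate 1, against 11.30 to 11.37 in the other mutant E11.5 hearts.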

How the results depend on the processing

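Every reported count of called genes among the 10 was 0. Over the alternatives, 284 of the counts were again 0 and 12 were not. Of the values of single genes, 28 changed sign, 17 were called where the reported value had not been, and the other 1059 kept their direction and their call. All 10 genes were counted in WT hearts between stages and between mutant and WT hearts at each stage. In mutant hearts between stages only *Bmp7*, *Bmp10*, *Id1* and *Id3* were counted. For the difference between stages only *Bmp4* and *Bmp10* were, and over both stages only *Bmp5* was. Among the 17 were the stage changes of *Bmp7*, *Id1* and *Id3* in WT and in mutant hearts without a fold threshold. These passed on the adjusted p alone. The cause of these moves was not tested.

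In WT hearts, 1 of the 10 genes was called higher at E13.5 with each array centred on its median (*Id1*), 1 with the 2 groups fitted alone (*Bmp10*) and 3 without a fold threshold, and 0 to 1 when a heart was left out. Arrays scaled to equal median and median absolute deviation gave 2 lower (*Bmp4* and *Id2*). Changes of sign were -0.13 (quantile), -0.19 (cyclic loess) and -0.58 (equal median and deviation) for *Id2*, -0.11, -0.13 and -0.19 for *Smad6*, -0.022 and -0.025 (loess, equal deviation) for *Bmp6*, and -0.10 (equal deviation) for *Bmp7*. With a heart left out, *Id2* ran from -0.023 (without WT E11.5 replicate 2) to 0.076, and *Bmp5* from -0.14 to 0.039 (without WT E11.5 replicate 3).

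In mutant hearts, 3 genes were called higher at E13.5 without a fold threshold, 2 without the 3 hearts that stand apart (*Bmp10* and *Id1*) and 0 to 1 with a heart left out. Equal median and deviation gave 1 lower, and turned *Bmp7* to -0.22 and *Bmp10* to -0.030.

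Between mutant and WT hearts at E13.5, leaving out a heart gave -0.063 to 0.053 for *Bmp4*, -0.11 to 0.21 for *Bmp10* and -0.086 to 0.015 for *Smad6*, which was 0.015 without the 3 hearts. At E11.5, *Smad6* was -0.0045 with Y-linked genes as a covariate, *Bmp10* ran from -0.022 to 0.51 with a heart left out and was -0.15 without the 3 hearts, and *Bmp7* was then -0.025. The difference between stages for *Bmp10* ran from -0.45 to 0.084, and was 0.31 without the 3 hearts.

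Replicate numbers are shared across groups but no source says that they pair hearts, and 1 of 21 same-numbered pairs correlated above 0.1. With the replicate block, 1 gene was called higher in WT E13.5 hearts (*Id1*, 0.55, adjusted p = 0.0146), and no other call among the 10 genes changed.

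With 4 hearts a group, 95% intervals were narrowest for *Id2* and widest for *Bmp10*. Whole hearts average all cell types.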
